A study of Homo sapiens with 9 samples.

Results

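MALAT1, TUG1, KCNQ1OT1, PVT1 and SNHG14 are 5 long non-coding RNA genes that are described as mostly nuclear. All of their transcripts in the deposited abundance estimates were followed, which gave 55 of the 215170 transcripts and 5 of the 56347 genes that these transcripts were matched to. The cells were HEK293, a human embryonic kidney line, which the methods of the study name as 293 T. They were transfected with control siRNA or with siRNAs against both WTAP and Virilizer (KIAA1429, gene symbol VIRMA), subunits of the complex that writes N6-methyladenosine (m6A) on RNA. Each was separated into a nuclear and a cytoplasmic fraction, and the study asked which RNAs change their nuclear/cytoplasmic ratio when the complex is depleted. The 9 samples were 3 control nuclear, 3 RNAi nuclear, 1 control cytoplasmic (replicate 2) and 2 RNAi cytoplasmic (replicates 1 and 2). RNAi lowers a protein rather than removing it, and all samples came from 1 cell line. The labels number the replicates without saying whether they were separate cultures, so the p-values measure only the spread between these samples.

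Long non-coding RNAs of this kind are transcribed by RNA polymerase II, but many remain at chromatin or in nuclear bodies. MALAT1 is an unspliced RNA of nuclear speckles, the bodies that store splicing factors. Its end is cut by RNase P ahead of a tRNA-like small RNA, so that MALAT1 carries an encoded A-rich end held in a triple helix in place of an ordinary poly(A) tail. TUG1 is a spliced RNA found in both compartments. KCNQ1OT1 is an imprinted, very long antisense RNA inside KCNQ1 that stays at chromatin and silences neighbouring genes. PVT1 lies beside MYC and is spliced into many forms, and SNHG14 is the long host transcript of snoRNA clusters in an imprinted region, where it also runs antisense to UBE3A. MALAT1 is a well known m6A target, and GGACT in the DNA spells the most common sequence in which the complex methylates the A.

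The sequences below show features by which these RNAs differ as molecules. Whether these features had a part in how the RNAs were captured and counted was not tested. The sequences were read from the GRCh37 genome with GENCODE version 44 transcript models. The first is from MALAT1 (MALAT1-202, 1 exon, + strand), chr11:65273489-65273621, with its longest run of A, 13 bases, in capitals. The U-rich stretches lie before the run and the tRNA-like sequence starts after it.
MALAT1 end: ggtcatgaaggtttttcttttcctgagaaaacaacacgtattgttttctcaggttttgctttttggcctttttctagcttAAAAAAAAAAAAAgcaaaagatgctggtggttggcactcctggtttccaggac
The second is the stretch of MALAT1 with the most GGACT sites within 100 bases, chr11:65267740-65267849, + strand, with the 3 sites in capitals.
MALAT1 GGACT: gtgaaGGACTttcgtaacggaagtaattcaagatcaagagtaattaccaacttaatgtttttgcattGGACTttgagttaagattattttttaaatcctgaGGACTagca
The third is from the exon of KCNQ1OT1 (KCNQ1OT1-201, 1 exon, minus strand), chr11:2631907-2632015, with its longest run of A, 29 bases, in capitals.
KCNQ1OT1 A run: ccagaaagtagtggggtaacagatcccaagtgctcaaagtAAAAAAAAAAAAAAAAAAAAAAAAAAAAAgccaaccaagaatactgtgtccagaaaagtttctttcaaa
The last is from TUG1, chr22:31368801-31368950, + strand, with the AG just before each of the 2 exon starts in capitals. The first of these, followed by an exon starting at 31368841, is used by TUG1-201, and the later one, 69 bases on at 31368910, by TUG1-202. TUG1-208 uses neither, since its first exon starts 592 bases before 31368841 and runs through both.
TUG1 acceptors: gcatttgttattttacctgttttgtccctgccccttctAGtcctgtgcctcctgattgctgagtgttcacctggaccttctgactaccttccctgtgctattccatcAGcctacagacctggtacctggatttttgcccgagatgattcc

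The GGACT motif was counted on the sense strand of each annotated transcript. MALAT1-202 held 17 sites, or 1.63 per kb, and 19% of the 125424 annotated transcripts of 1000 nt or longer had a higher rate. Among those transcripts the median rate was 0.91 per kb and 87.1% held the motif at least once. TUG1-202 had 1.42 sites per kb and TUG1-201 had 1.2. PVT1-203, with 1.18 per kb, lay near TUG1-201. KCNQ1OT1-201 held 79 sites over 91667 nt, or 0.86 per kb, and SNHG14-210 had 0.83 per kb, both below the median. TUG1-208 held 1 site, or 0.45 per kb, and 79.2% of transcripts had a higher rate. A run of A longer than the 29 of KCNQ1OT1-201 was found in 0.12% of transcripts, and one longer than the 13 of MALAT1-202 in 6.14%. The median longest run was 6. A motif is a description of the letters and does not show that a site was methylated.

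These models are newer than the Ensembl version 75 transcripts the reads were assigned to, and 21 of the 55 transcripts had the same length in both. KCNQ1OT1-201, TUG1-202, TUG1-208 and PVT1-203 were among them. MALAT1-202 was 8708 nt long in the files and 10434 nt in the newer model, and TUG1-201 was 5673 nt against 5017 nt. SNHG14-210 was 7844 nt in the files and 24124 nt in the newer model. The motif rates above were counted on the newer models. The gene spans in the newer annotation were chr11:65265111-65275544 (+) for MALAT1 and chr22:31365231-31375381 (+) for TUG1. KCNQ1OT1 spanned chr11:2618538-2721233 (minus), PVT1 chr8:128806772-129199347 (+) and SNHG14 chr15:25223730-25665483 (+). TUG1 is given there as protein-coding.

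The library totals ranged from 11627403 to 19036141 estimated reads, the control cytoplasmic sample being the deepest. Levels are given as CPM, the reads of a gene scaled by edgeR's TMM factors to a fixed library total, and as TPM, which is also per length, where genes or isoforms are compared with each other. A gene was called where its Benjamini-Hochberg FDR in edgeR's quasi-likelihood test over 16181 genes was under 0.1 and its log2 difference over 0.5. CPM and TPM are shares of a library, so RNA amount per cell was not measured. Both targets were lower after RNAi. WTAP was at 24.1, 27.6 and 23.0 CPM in control nuclei and at 12.2, 14.3 and 15.5 in RNAi nuclei, and fell by 0.83 ± 0.13 on the log2 scale (SE, adjusted p = 0.0169, edgeR). VIRMA fell by 1.08 ± 0.21 in the nucleus (adjusted p = 0.0314, edgeR). In the cytoplasm WTAP fell by 1.72 and VIRMA fell by 2.07. Of 12 mRNAs chosen as cytoplasmic, such as GAPDH and ACTB, 10 were called lower in the nucleus than in the cytoplasm of RNAi cells, where 24.9% of all genes were called lower. In control cells 4 of the 12 were, against 22.7% of all genes, and none was called higher in either. Their median log2 nuclear/cytoplasmic difference was -0.76 in RNAi cells and -0.30 in control cells. The ratio of 2 of the 12, RPL3 and TUBB, was called lower after RNAi, against 7.87% of all genes. The part this has in the nuclear/cytoplasmic comparisons below was not tested.

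All 5 long non-coding RNAs were higher in the nucleus than in the cytoplasm. SNHG14 entered the test only through its nuclear samples, so its nuclear excess was in part fixed by the filter on low counts (at least 10 reads in at least 3 samples). Of the other 4 MALAT1 was the most nuclear and PVT1 the least, and 4 of 4 were called higher in the nucleus in both RNAi and control cells. SNHG14 was called as well, and over all genes tested 32.9% were called higher in RNAi cells and 28% in control cells. Among the 14502 genes that reached 10 reads in at least 1 cytoplasmic sample these shares were 26.2% and 22.5%. For each of the 5 the lowest nuclear sample lay above the highest cytoplasmic one, as it did for 26.7% of all genes. The median log2 difference of the 4 genes was 2.63 in RNAi cells and 1.62 in control cells, and 3.71 and 2.13 with SNHG14 included, against 0.04 over all genes in both.

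**Figure D1:**
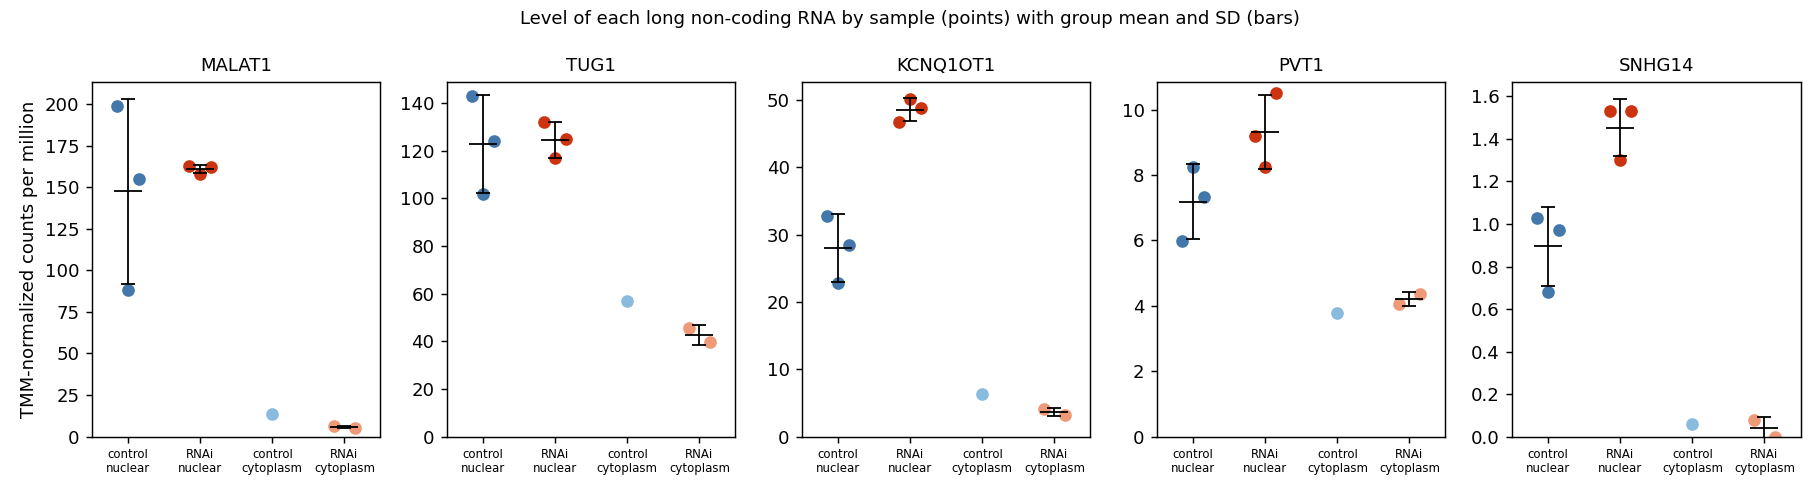
TMM-normalized CPM (y axis, from 0, a separate scale for each gene) of the 5 long non-coding RNAs in the 3 control nuclear, 3 RNAi nuclear, 1 control cytoplasmic and 2 RNAi cytoplasmic samples (points), with the group mean and SD as bars where a group has more than 1 sample. In every panel the 6 nuclear samples lie above the 3 cytoplasmic ones, and for KCNQ1OT1 and SNHG14 the 3 RNAi nuclear samples lie above the 3 control nuclear ones.

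MALAT1 was measured at 199, 88.3 and 155 CPM in control nuclei and at 163, 158 and 162 CPM in RNAi nuclei. In the cytoplasm it stood at 13.8 CPM in the control sample and at 6.46 and 5.47 CPM in the RNAi samples. The control nuclei spread widely (148 ± 55.9 CPM, SD, n = 3), control nuclear replicate 2 being the low one, whereas the RNAi nuclei were close together (161 ± 2.88, SD, n = 3) and lay within the range of the controls. Both RNAi cytoplasmic samples were below the control one. MALAT1 was 10.7-fold higher in the nucleus in control cells (log2 3.42 ± 0.41, SE, adjusted p = 0.000146, edgeR) and 26.8-fold higher in RNAi cells (log2 4.74 ± 0.34, adjusted p = 3.7e-06, edgeR). In RNAi cells 1.92% of all genes had a larger nuclear excess. Its nuclear level differed by 0.13 ± 0.22 between RNAi and control (log2, adjusted p = 0.79, edgeR), an estimate that was -0.137 without control nuclear replicate 2.

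Cytoplasmic MALAT1 fell by 1.20 ± 0.41 on the log2 scale after RNAi (adjusted p = 0.0642, edgeR), to 0.436 of the control level. MALAT1 and KCNQ1OT1 were the 2 of 5 called lower in the cytoplasm, where 14.2% of all genes were called lower. Values below the single control sample in both RNAi samples were also seen for 40.1% of all genes. The cytoplasmic comparison rests on that 1 control sample, whose spread was taken from the other groups. Without RNAi cytoplasmic replicate 1 the adjusted p for MALAT1 was 0.124, and without replicate 2 it was 0.182. Nearly all MALAT1 reads were assigned to MALAT1-202, with 2904, 1296 and 1753 estimated reads in control nuclei and 2348, 1704 and 2236 in RNAi nuclei. MALAT1-201 had no read in any sample and MALAT1-203 had 0.5 reads over all 9.

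TUG1 was measured at 143, 102 and 124 CPM in control nuclei and at 132, 117 and 125 CPM in RNAi nuclei, and these ranges overlapped. In the cytoplasm it was at 57.1 CPM in the control sample and at 45.5 and 39.7 CPM after RNAi, both lower. TUG1 was 2.15-fold higher in the nucleus in control cells (log2 1.11 ± 0.19, adjusted p = 0.00104, edgeR) and 2.92-fold higher in RNAi cells (log2 1.55 ± 0.15, adjusted p = 1.89e-05, edgeR). The nuclear level differed by 0.02 ± 0.12 between RNAi and control (log2, adjusted p = 0.946, edgeR). The cytoplasmic level differed by -0.42 ± 0.19 (adjusted p = 0.146, edgeR), which did not pass.

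KCNQ1OT1 was the member that changed in both fractions, in opposite directions. It was measured at 32.8, 22.8 and 28.5 CPM in control nuclei and at 46.7, 50.1 and 48.9 CPM in RNAi nuclei, so that the lowest RNAi sample exceeded the highest control. Such a separation upwards was seen for 14.3% of all genes, and of the 5 long non-coding RNAs SNHG14 showed it too. In the cytoplasm KCNQ1OT1 was at 6.39 CPM in the control sample and at 4.05 and 3.28 CPM after RNAi. It was called higher in RNAi nuclei, by 0.79 ± 0.14 on the log2 scale or 1.73-fold (adjusted p = 0.0233, edgeR). It was the only 1 of the 5 to pass, against 2.47% of all genes called higher and 4.89% called in either direction, and 3.52% of genes had a larger estimate. The size held when samples were left out (0.66 to 0.92), but the adjusted p was 0.113 without control nuclear replicate 3, 0.106 without RNAi nuclear replicate 2 and 0.122 without RNAi nuclear replicate 3.

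In the cytoplasm KCNQ1OT1 fell by 0.79 ± 0.26 (log2, adjusted p = 0.0559, edgeR), and without RNAi cytoplasmic replicate 2 the adjusted p was 0.167. It was 4.38-fold higher in the nucleus in control cells and 13.1-fold higher in RNAi cells (log2 2.13 ± 0.23 and 3.71 ± 0.20). The files list 1 transcript, the unspliced KCNQ1OT1-201, with 322.4 to 477.6 estimated reads in control nuclei, 540.8 to 673.1 in RNAi nuclei and 29.8 to 105.1 in the cytoplasm. Spread over 91667 nt these reads gave 0.267 to 0.312 TPM in control nuclei and 0.475 to 0.574 TPM in RNAi nuclei. The transcript lies within KCNQ1 on the other strand, and whether strand was used in the assignment is not given in the sources used here, so reads from unspliced KCNQ1 RNA cannot be told apart from KCNQ1OT1 reads. KCNQ1 itself, a potassium channel gene, was at 6.52, 4.16 and 4.87 CPM in control nuclei and at 5.01, 2.97 and 3.92 CPM in RNAi nuclei (log2 -0.37 ± 0.23, adjusted p = 0.398, edgeR), a difference that did not pass. In the cytoplasm KCNQ1 was at 5.90 CPM in the control and at 9.11 and 7.98 CPM after RNAi.

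PVT1 was measured at 5.97, 8.25 and 7.34 CPM in control nuclei and at 9.18, 8.25 and 10.5 CPM in RNAi nuclei, where the lowest RNAi sample met the highest control. In the cytoplasm it was at 3.77 CPM in the control and at 4.05 and 4.37 CPM after RNAi. The difference in the nucleus was 0.37 ± 0.17 (log2, adjusted p = 0.24, edgeR) and in the cytoplasm 0.16 ± 0.28 (adjusted p = 0.742, edgeR), and neither passed. PVT1 was 1.9-fold higher in the nucleus in control cells (adjusted p = 0.0139, edgeR) and 2.22-fold higher in RNAi cells (adjusted p = 0.00085, edgeR).

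SNHG14 was close to the limit of detection. It had 14.7, 10.2 and 11 estimated reads in control nuclei, 21.9, 14.4 and 21.2 in RNAi nuclei, 1.0 in the control cytoplasmic sample, and 1.0 and 0 in the RNAi cytoplasmic samples. As it was tested only because its nuclear samples reached 10 reads, a nuclear excess was in part fixed by the filter. The ratio of nuclear to cytoplasmic reads after adjustment for depth was 14.6 in control cells (95% exact interval 2.46 to 592) and 32.2 in RNAi cells (5.55 to 1290), and these intervals cover counting error only. In CPM it was at 1.03, 0.682 and 0.973 in control nuclei and at 1.53, 1.3 and 1.53 in RNAi nuclei, which did not overlap. The difference was 0.70 ± 0.33 (log2, adjusted p = 0.251, edgeR) and did not pass. With 2 cytoplasmic reads in all, a change in the cytoplasm was not detectable at this depth.

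**Figure D2:**
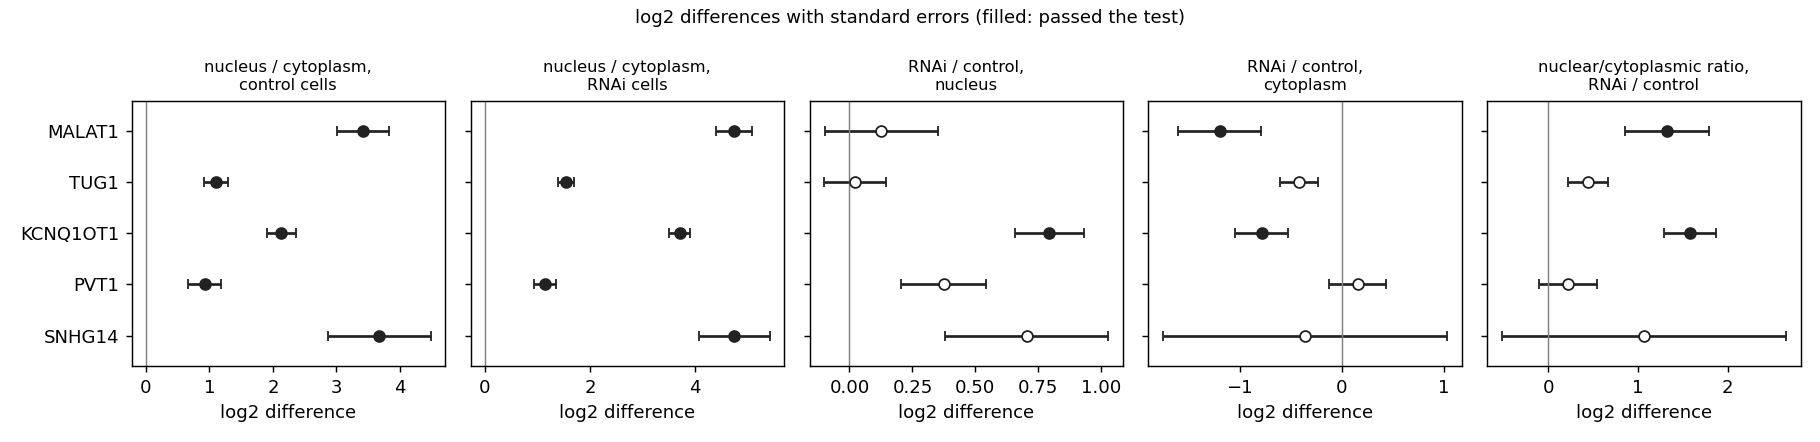
log2 difference (x axis, a separate range in each panel) with its standard error for the 5 long non-coding RNAs in the 5 comparisons, filled where the gene passed the test. All 5 are filled and right of 0 in both comparisons of nucleus with cytoplasm, and KCNQ1OT1 is filled in all 5 panels, at 0.79 in the nucleus and -0.79 in the cytoplasm. The values of SNHG14 against the cytoplasm rest on 2 cytoplasmic reads.

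Per length the order differed from that of the counts. In control nuclei TUG1 had the highest TPM (38.9 ± 4.65, SD, n = 3), followed by MALAT1 (16.3 ± 4.74) and PVT1 (15.8 ± 4.79), whose samples overlapped. KCNQ1OT1 (0.292 ± 0.0227 TPM) and SNHG14 (0.241 ± 0.0335 TPM) lay far below and overlapped each other. The order of the groups was alike in RNAi nuclei, with TUG1 at 45.6 ± 2.68 TPM, MALAT1 at 18.9 ± 0.898 and PVT1 at 18.6 ± 2.06. There SNHG14 (0.429 to 0.988 TPM) spread around KCNQ1OT1 (0.475 to 0.574 TPM). In the control cytoplasmic sample TUG1 had 18.7 TPM, PVT1 5.7, MALAT1 1.51, KCNQ1OT1 0.0649 and SNHG14 0.00739, so PVT1 stood above MALAT1 there.

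The question of the study, whether the nuclear/cytoplasmic ratio changed, was answered by setting the ratio in RNAi cells against that in control cells. The ratio of KCNQ1OT1 rose 2.99-fold (log2 1.58 ± 0.29, adjusted p = 0.00987, edgeR) and that of MALAT1 2.51-fold (log2 1.33 ± 0.47, adjusted p = 0.0936, edgeR). These were 2 of the 5 genes, against 10.4% of all genes with a raised ratio and 18.2% called in either direction. A larger estimate than that of KCNQ1OT1 was found for 7.39% of genes and a larger one than that of MALAT1 for 9.94%. For TUG1 the difference was 0.44 ± 0.23 (adjusted p = 0.235, edgeR), for PVT1 0.22 ± 0.33 (adjusted p = 0.709, edgeR) and for SNHG14 1.07 ± 1.59 (adjusted p = 0.762, edgeR). In these 3 the standard error leaves room for no change and for a change past the threshold. The call of MALAT1 was lost when any 1 of 6 of the 8 removable samples was dropped, with adjusted p from 0.129 to 0.21 in these, while KCNQ1OT1 kept its call in all 8. The control cytoplasmic sample could not be dropped, so how far either call depends on it was not tested. With limma on log2(TPM + 1), a scale that compresses RNAs under 1 TPM, both calls were lost (adjusted p = 0.433 for KCNQ1OT1 and 0.222 for MALAT1), and on log2(TPM + 0.1) that of KCNQ1OT1 was lost (log2 1.02, adjusted p = 0.31) and that of MALAT1 was not (adjusted p = 0.069). TUG1 passed without control nuclear replicate 1 (log2 0.62, adjusted p = 0.0603, edgeR). The ratio shares its samples with the comparisons above and adds no separate measurement.

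**Figure D3:**
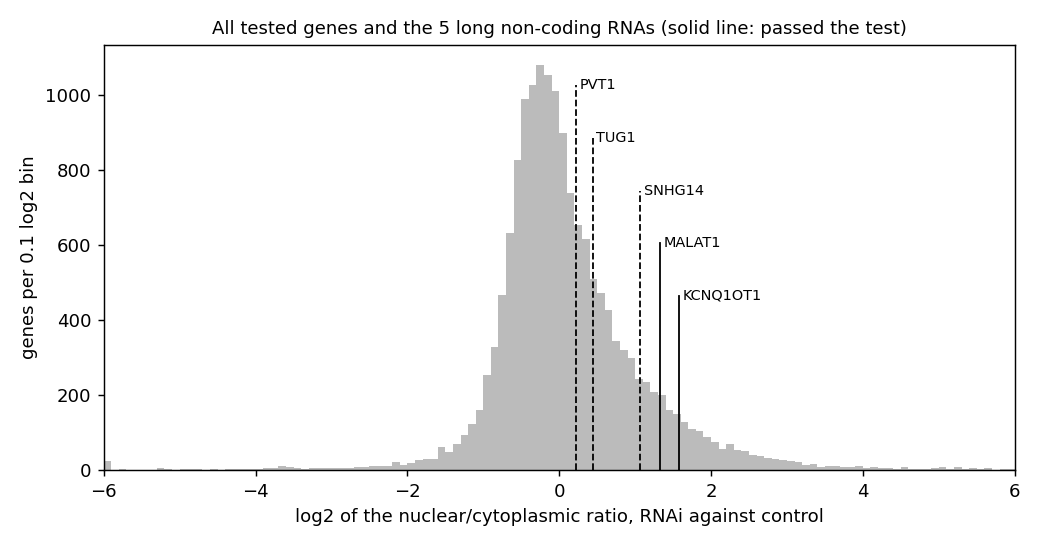
Number of genes (y axis) by log2 of the nuclear/cytoplasmic ratio in RNAi cells over that in control cells (x axis, bins of 0.1, values past 6 either way placed in the end bins) for the 16181 genes tested, with a line at each of the 5 long non-coding RNAs, solid where it passed the test. All 5 lie right of the median gene (-0.05), from 0.22 for PVT1 to 1.58 for KCNQ1OT1.

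The isoforms of TUG1 are given with their own values in each fraction, and differences between isoforms were not tested. Of the 9 TUG1 transcripts in the files 6 were tested and TUG1-207 had no read. TUG1-208, the form whose first exon runs through both acceptors printed above, was at 9.38, 6.99 and 8.85 TPM in control nuclei and at 11.2, 14.1 and 14.5 TPM in RNAi nuclei, and at 1.84 TPM in the control cytoplasm and 1.47 and 0.929 TPM after RNAi. All RNAi nuclei lay above all control nuclei, as they did for 10.2% of all transcripts tested in CPM. TUG1-208 made up 21.5 ± 0.9% of TUG1 TPM in control nuclei (SD, n = 3) and 29.2 ± 5.0% in RNAi nuclei (SD, n = 3), against 9.8% in the control cytoplasm and 11.7% and 9.6% in the RNAi cytoplasm. The nuclear difference of its reads was 0.56 ± 0.23 (log2, adjusted p = 0.489, edgeR) and did not pass.

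TUG1-202, which uses the later acceptor, was at 1.41, 1.43 and 2.98 TPM in control nuclei and at 0.931, 2.50 and 1.74 TPM in RNAi nuclei. It had no read in any of the 3 cytoplasmic samples. Against a floor of 3 reads over all cytoplasmic samples of the group, it was at least 19.4-fold higher in the nucleus in control cells and at least 23.0-fold higher in RNAi cells. The lower limits of the 2-sided 95% exact interval of these ratios were 15.6 and 18.4. TUG1-201, the longest form, was the most abundant in control nuclei and in all cytoplasmic samples, while TUG1-208 exceeded it in RNAi nuclear replicates 2 and 3. TUG1-201 was at 13.4 to 15.1 TPM in control nuclei, 13.3 to 13.7 TPM in RNAi nuclei, 6.13 TPM in the control cytoplasm and 3.65 and 4.55 TPM in the RNAi cytoplasm. In RNAi cells TUG1-208 was 8.71-fold higher in the nucleus (log2 3.12 ± 0.30, adjusted p = 0.000587, edgeR), TUG1-206 4.68-fold (log2 2.23 ± 0.45) and TUG1-203 3.16-fold (log2 1.66 ± 0.36). TUG1-201 was 2.6-fold higher (log2 1.38 ± 0.15, adjusted p = 0.000938, edgeR).

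TUG1-209 went the other way in its share of TUG1. It held 25.7% of TUG1 TPM in the control cytoplasm and 31.3% and 23.4% in the RNAi cytoplasm, and 0% to 12.0% in the 6 nuclear samples. It was listed at 0 reads in replicate 2 of both nuclear groups and at 30.8 to 103.2 reads in the other 4 nuclear samples, and its log2 difference in RNAi cells was -0.76 ± 1.75 (adjusted p = 0.778, edgeR). Salmon divides shared reads between isoforms, and the error of that division is not in these tests. TUG1-204 (0 to 1.63 TPM) passed the level for naming through RNAi nuclei alone but not the filter.

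**Figure D4:**
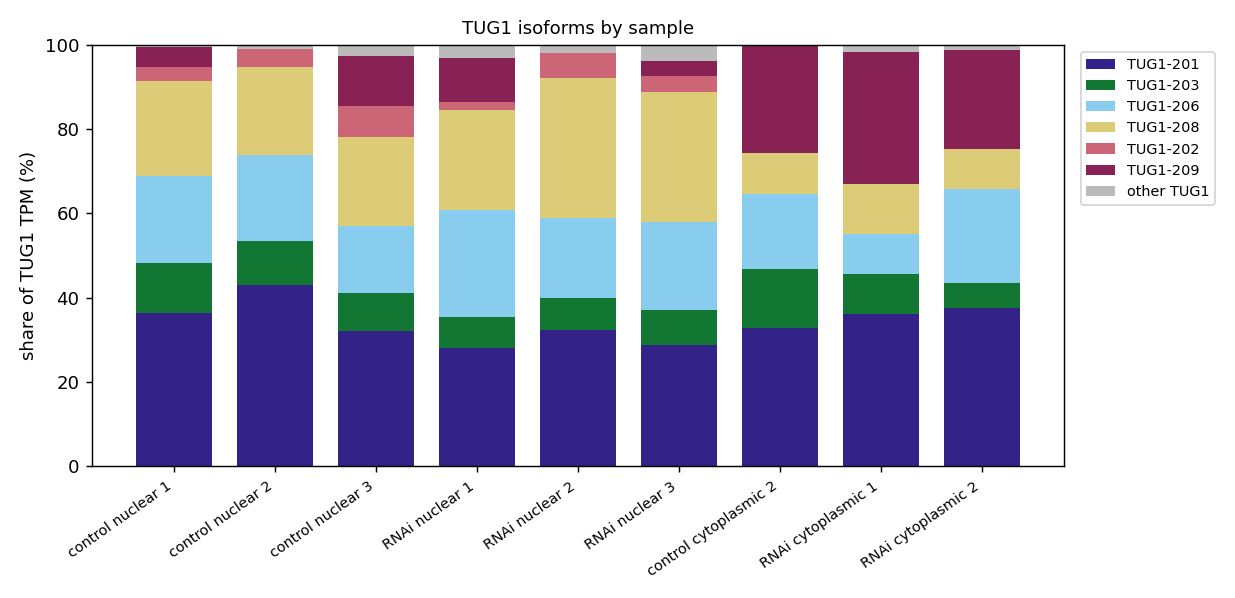
Share of TUG1 TPM (y axis, percent) held by each TUG1 isoform (colours) in each of the 9 samples (x axis). TUG1-208 takes 20.8% to 33.2% in the nuclear samples and 9.6% to 11.7% in the cytoplasmic ones, TUG1-209 takes 23.4% or more in the cytoplasm alone, and TUG1-202 is absent from all 3 cytoplasmic bars.

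Over all tested transcripts of the 5 genes, 9 of 13 were called higher in the nucleus of RNAi cells, against 28% of the 50857 transcripts tested. They were MALAT1-202, KCNQ1OT1-201, 5 of TUG1 (all tested but TUG1-209) and 2 of PVT1. TUG1-202 and PVT1-213 had under 10 reads in every cytoplasmic sample and passed the filter through nuclear samples alone, which in part fixed their excess. Without these 2 the count was 7 of 11, against 15.8% of the 40572 transcripts with 10 reads in at least 1 cytoplasmic sample. Among these 7 was PVT1-214, which reached 10 reads in the control cytoplasm but had 2 over the RNAi cytoplasmic samples. Of its RNAi samples only nuclear ones counted towards the filter, which in part fixed its excess in RNAi cells too. Between RNAi and control nuclei 0 of the 13 were called, and 0% of the 50857 transcripts were, with edgeR's quasi-likelihood test. At an unadjusted p under 0.05 that comparison held 2 of the 13, KCNQ1OT1-201 and TUG1-208, and 4965 transcripts in all. The DESeq2 Wald test called 1341 transcripts, and 1 of the 13, KCNQ1OT1-201 (log2 0.80, adjusted p = 0.00187, DESeq2).

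PVT1 had 20 transcripts in the files, 17 with a read and 5 tested. PVT1-217, a form of 443 nt, held 40.3% to 74.3% of PVT1 TPM, at 4.93, 13.8 and 11.2 TPM in control nuclei, 7.43, 8.07 and 10.03 TPM in RNAi nuclei, 2.34 TPM in the control cytoplasm and 5.43 and 2.92 TPM after RNAi. These values rest on 9.3 to 43.2 estimated reads a sample, and the groups of nuclei overlapped. PVT1-203 was at 0.982 TPM in control nuclear replicate 1, at 1.59 to 1.89 TPM in the other 5 nuclear samples and at 0.859 to 0.879 TPM in the cytoplasm. PVT1-213 (adjusted p = 0.024, edgeR) and PVT1-214 (adjusted p = 0.0201, edgeR) were called higher in RNAi nuclei than in RNAi cytoplasm, where they had 1 and 2 reads. Their depth-adjusted ratios of reads in RNAi cells were 24.8 (95% exact interval 4.21 to 1000) and 7.48 (1.87 to 65.1). In control cells they were 5.34 (1.34 to 46.4) for PVT1-213 and 0.752 (0.333 to 1.81) for PVT1-214, and neither was called there. PVT1-212 was at 0.412 to 1.78 TPM in nuclei and did not pass. Of the 22 SNHG14 transcripts 6 had a read, from 1.0 to 35.2 reads over the 9 samples, and none was tested.

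Other long non-coding RNAs described as nuclear were read beside them. Of 9 listed 6 were tested, and 4 of the 6, FTX, FIRRE, LINC-PINT and NEAT1, were called higher in the nucleus in both control and RNAi cells, where 28% and 32.9% of all genes were. JPX was called lower in the nucleus of control cells (log2 -1.07 ± 0.23, adjusted p = 0.00349, edgeR) and was at 0.29 ± 0.20 in RNAi cells (adjusted p = 0.24, edgeR). OIP5-AS1 was at 0.03 ± 0.16 in control cells and 0.50 ± 0.13 in RNAi cells, short of the fold threshold. In RNAi nuclei 2 of the 6 were called higher, FTX and NEAT1, against 2.47% of all genes. NEAT1 is the scaffold RNA of paraspeckles and is transcribed beside MALAT1. NEAT1 was at 121, 144 and 137 CPM in control nuclei and at 180, 211 and 187 CPM in RNAi nuclei (log2 0.52 ± 0.10, adjusted p = 0.0297, edgeR). Per length this rise was not seen, with 11.4, 21.1 and 14.2 TPM in control nuclei and 16.6, 17.7 and 15.4 TPM in RNAi nuclei, which overlapped. In the cytoplasm NEAT1 was at 13 CPM in the control and at 9.97 and 10.9 CPM after RNAi. The nuclear/cytoplasmic ratio of 3 of the 6 was called higher, against 10.4% of all genes, with log2 1.99 for FTX, 1.36 for JPX and 0.85 for NEAT1. The first 2 are RNAs of the X inactivation centre. In the cytoplasm FTX, JPX and OIP5-AS1 were called lower, against 14.2% of all genes. Of 11 tested RNAs described as cytoplasmic or as spliced snoRNA hosts, 4 (GAS5, SNHG1, SNHG8 and SNHG12) were called higher in the nucleus in both kinds of cells, a share of 36.4% against the 28% and 32.9% of all genes. SNHG12 was at log2 3.28 in control and 3.66 in RNAi cells, beside 2.13 and 3.71 for KCNQ1OT1. DANCR was called lower in both and SNHG5 in RNAi cells. Of these 11, 0 were called between RNAi and control in the nucleus, in the cytoplasm or in the ratio by edgeR. Over all genes 4.89%, 24.6% and 18.2% were called in either direction. The median ratio difference of the 11 was -0.36. At an unadjusted p under 0.05 there were 0, 1 and 0 of the 11, and the DESeq2 Wald test called 0, 1 and 0.

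Genes beside or overlapping the 5 were also read, 13 of the 27 listed being tested. MORC2, which neighbours TUG1, was the 1 called higher in RNAi nuclei (107, 105 and 104 CPM against 69.0, 83.2 and 69.5, log2 0.51 ± 0.10), where 2.47% of all genes were. Of the KCNQ1OT1 domain, PHLDA2, an imprinted growth regulator, was 0.39 ± 0.08 higher in the nucleus (log2, adjusted p = 0.0395, edgeR), under the fold threshold, and was called higher in the cytoplasm, at 54.8 CPM in the control against 93.6 and 89.0 CPM after RNAi. CDKN1C, the cell cycle inhibitor of that domain, was at 1.09 to 2.78 CPM in nuclei and did not pass. MYC, beside PVT1, was at 573 CPM in the control cytoplasm against 1390 and 935 CPM after RNAi, a difference of 1.02 ± 0.27 (adjusted p = 0.0243, edgeR). In nuclei MYC was at 386 to 571 CPM in controls and 560 to 683 CPM after RNAi (adjusted p = 0.324, edgeR). MORC2 and TSSC4 were also called higher in the cytoplasm, where 10.4% of all genes were. By edgeR 14.2% of all genes were called lower there. Of the neighbours 0 were called lower by edgeR or DESeq2, with 0 lower at an unadjusted p under 0.05.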

How the data were processed

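RNA of each fraction was taken into Lexogen SENSE mRNA-Seq libraries, a kit that selects polyadenylated RNA. The authors trimmed reads with cutadapt and ran salmon against Ensembl version 75 (hg19); its version and strand setting are not given in the sources used here. The deposited tables hold, per transcript and sample, an estimated count, a TPM value and lengths in nucleotides, unnormalized between samples apart from TPM, which the authors' tool scaled by effective length to a fixed total.

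Transcripts were matched by identifier to GENCODE version 44 on GRCh37: 85.1% matched, with 83.07% to 88.31% of reads. Estimated counts were summed per gene, rounded, filtered (at least 10 in at least 3 samples) and tested with edgeR 4.0.16 (R 4.3.3): TMM, 4 groups, no replicate block, quasi-likelihood test, residual degrees of freedom 5, Benjamini-Hochberg adjustment over all features. The same was done for transcripts. The SE is the size of the log2 difference divided by the root of F. Code was tested on simulated data. In 1 sample, 3 reads came to 0.19 to 0.303 CPM. Replicates correlated at 0.9723 to 0.9861, and no pair was alike within sampling noise (lowest chi-square per degree of freedom 5.65).

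The 5 genes, the gene lists and the tests were chosen with earlier results of these data known. Named are all 5 genes, their transcripts with a median TPM of at least 1 in a group or a call, the RNAi targets, listed genes that were called (1 of them is not reported here), and the 3 genes most like each member. Alternatives were other scalings, DESeq2 1.42.0, other filters, a length offset, limma 3.58.1 on log2(TPM + 1) and log2(TPM + 0.1), a replicate block, and each sample left out except the control cytoplasmic one.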

Additional observations from a re-analysis of the deposited data

Results flagged for a closer look

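The effect of RNAi differed between nucleus and cytoplasm for KCNQ1OT1, with a difference of 1.58 on the log2 scale (adjusted p = 0.00987, edgeR's quasi-likelihood test): higher in 3 of 3 RNAi nuclei than in any control nucleus, and lower in both RNAi cytoplasmic samples. For MALAT1 the difference was 1.33 (adjusted p = 0.0936, edgeR), with both RNAi cytoplasmic samples below the control and nuclei that overlapped. WTAP, a target of the siRNAs, fell in both fractions but by less in the nucleus, a difference of 0.89 (adjusted p = 0.0326, edgeR). All 3 rest on 1 control cytoplasmic sample.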

How the results depend on the processing

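Over 17 alternatives, all 5 genes kept their call and direction for nucleus against cytoplasm in RNAi cells wherever they were tested (SNHG14 was not under the filter of 10 counts in every sample, which left 4), and between 7 and 10 transcripts were called (9 as reported). Of the other counts of called members, limma on log2(TPM + 1) gave 0 of 5 in nuclei (1 as reported), 0 in cytoplasm (2), 3 for nucleus against cytoplasm in control cells (5) and 1 for the ratio (2), and limma on log2(TPM + 0.1) gave 0 in nuclei. The genes behind equal counts differed. On log2(TPM + 1) the 1 ratio call was TUG1 (adjusted p = 0.0982), those of KCNQ1OT1 (0.433) and MALAT1 (0.222) being lost. On log2(TPM + 0.1) KCNQ1OT1 lost its ratio call (0.31) and its cytoplasmic call (0.698), while TUG1 passed in both (0.0856 and 0.0918). The length offset gave 1 for the ratio. DESeq2 and the filter of 10 counts in every sample each called 1 transcript between nuclei (0 as reported). With samples left out the counts ranged from 0 to 1 in nuclei, 0 to 2 in cytoplasm and 1 to 3 for the ratio.

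Signs turned only for differences that had not passed. Between nuclei these were TUG1 (-0.012 with no filter, -0.097 without control nuclear replicate 2, -0.016 without RNAi nuclear replicate 1), MALAT1 (-0.137) and MALAT1-202 (-0.173) and PVT1-217 (0.027) without control nuclear replicate 2, and TUG1-202 (0.17) without control nuclear replicate 3. TUG1-209 turned with the replicate block (0.113), without control nuclear replicate 3 (1.047), and without RNAi nuclear replicate 2 (0.481) or 3 (0.106). In the cytoplasm PVT1 turned with library size only (-0.101) and SNHG14 without RNAi cytoplasmic replicate 2 (0.27), and the ratio of PVT1 turned with the length offset (-0.191). The cause was not tested. With samples left out, these estimates ran up to 0.407 for MALAT1, 0.145 for TUG1 and 0.387 for MALAT1-202 between nuclei, and down to -0.478 for PVT1-217, -0.581 for TUG1-202 and -1.552 for TUG1-209 there and to -2.887 for SNHG14 in the cytoplasm. Library size alone moved the median gene by -0.24 in the cytoplasm and to 0.23 in the ratio, and the share of calls that were higher from 42.1% to 11.9%, from 56.9% to 93.2%, from 50.5% to 67.8% in nuclei and from 56.9% to 75.6% for nucleus against cytoplasm in RNAi cells. TUG1 passed in the ratio with library size only (0.733), relative to that shift.

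Replicate numbers shared by nuclear samples gave correlations of deviations of 0.185, 0.11 and 0.042. Each control nuclear sample correlated best with the RNAi nuclear sample of its own number. With the RNAi cytoplasmic sample of the same number they were 0.197 and 0.194 for control nuclei and 0.1 and 0.037 for RNAi nuclei. Samples of different numbers ran from -0.197 to 0.063. These values do not decide whether the numbers are pairs. The labels do not say whether fractions of 1 number came from the same culture, and the fits reported used no replicate block. With the replicate block the ratio of TUG1 passed (log2 0.604, adjusted p = 0.0325, edgeR), as did its fall in the cytoplasm (-0.573, adjusted p = 0.0148, edgeR), and no other call of the 5 genes changed. Depth limits SNHG14 and the rarer isoforms.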

Other observations

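The genes whose levels ran most like each of the 5 over the 9 samples were taken by the root mean square difference of log2 CPM after centring each gene on its own mean. KCNQ1OT1 ran closest to AKAP9, a scaffold protein of the centrosome and Golgi (0.14, against a median of 1.5 over all genes), then to the non-coding RNA ENSG00000234810 (0.15) and ZNF331, an imprinted zinc finger gene (0.17). MALAT1 had no neighbour as close, its nearest being ITGB7, an integrin subunit (0.29), and HOXB-AS2 (0.30), with a median of 2.05 over all genes. TUG1 ran closest to TTC17 (0.08), IGSF9B and CPD (both 0.09), and PVT1 to KLHDC4 (0.13), STAP2 and ZNF23 (both 0.14). SNHG14 ran closest to 2 non-coding RNAs and the pseudogene PRKXP1 (0.15 to 0.17), from counts near its own limit. These distances are descriptions over samples in 2 fractions and carry no test.

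Messages of proteins that process or bind MALAT1 were listed too, 18 of 20 being tested. By edgeR 0 were called between RNAi and control nuclei, against 4.89% of all genes. At an unadjusted p under 0.05 there were 4, against 20.8% of all genes, and DESeq2 called 0. SRRM2 and SRRM1, splicing coactivators of nuclear speckles, were the 2 of 18 called higher in the nucleus in both kinds of cells. Over all genes 32.9% were called higher in RNAi cells and 28% in control cells. In the other direction, 5 of the 18 were called lower in RNAi cells and 7 in control cells, against 24.9% and 22.7% of all genes. The median log2 difference of the 18 was -0.35 in RNAi cells and -0.29 in control cells. SRRM2 was at 5920 to 8690 CPM in the 6 nuclear samples and at 1800 to 2350 CPM in the cytoplasmic ones. In the cytoplasm 4 of the 18 were called, against 24.6% of all genes called in either direction. RPP30 and RPP40, subunits of RNase P, were lower after RNAi (log2 -0.85 ± 0.20, adjusted p = 0.0148, and -0.86 ± 0.25, adjusted p = 0.0351, edgeR), and RPP25, another subunit, was higher (0.56 ± 0.20, adjusted p = 0.0755, edgeR). YTHDC1, the nuclear reader of m6A, was at 48.9 CPM in the control cytoplasm against 34.6 and 34.2 CPM after RNAi (log2 -0.51 ± 0.15, adjusted p = 0.036, edgeR). It was the 1 of 18 whose ratio was called, at 0.58 ± 0.18, against 18.2% of all genes called in either direction. Of 9 chromatin and RNA-binding partners reported for TUG1, KCNQ1OT1 and PVT1, SUZ12 and EZH2, subunits of Polycomb repressive complex 2, were called lower in the cytoplasm. Over all genes 14.2% were called lower there. SUZ12 was at 15.2 CPM in the control cytoplasm against 3.89 and 3.17 CPM after RNAi, while its nuclei stayed within 5.28 to 7.41 CPM (log2 ratio difference 2.04 ± 0.31, adjusted p = 0.00446, edgeR).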
